A study of Drosophila melanogaster with 46 samples.

Results

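Cuticle protein genes of Drosophila melanogaster were described by their position relative to peaks of 4 chromatin proteins. The set was chosen by gene symbol, as the protein-coding genes whose symbols start with Cpr and a digit, Lcp, Ccp84, Twdl or Acp65A. It held 118 of the 13946 protein-coding genes, with 70 Cpr, 15 Lcp, 7 Ccp84 and 25 Twdl genes and the single gene Acp65Aa. A further 3 symbols, Lcp1Psi, Lcp65APsi and TwdlU, are pseudogenes and were left out. Of the 118 genes, 46 lie on 3L, 31 on 3R, 27 on 2R, 8 on X and 6 on 2L. They are short, with a median length of 970 bp against 2161 bp for all protein-coding genes.

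The insect cuticle is built from chitin fibres and a large repertoire of structural proteins that epidermal cells secrete before each moult. Most Cpr, Lcp, Ccp84 and Acp65A products carry the Rebers and Riddiford consensus, a chitin-binding domain, while Twdl genes encode the Tweedle family, which shapes the body of larva and pupa. Many of these genes arose by tandem duplication and stand in rows of neighbours. The C2H2 zinc-finger proteins CTCF, Pita and Su(Hw) bind DNA and are known from insulators, and CP190 is a BTB-domain protein that joins them there and at promoters.

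The series is chromatin immunoprecipitation followed by sequencing (ChIP-seq) from whole animals, with 46 samples in 15 groups and 7 deposited peak lists. Lists for CTCF, Pita and Su(Hw) exist for adults and for larvae, and their groups are labelled with genotype dCTCFwt and strain y1w1118, CTCF being HA-tagged and precipitated through its tag. The CP190 list is larval and names no genotype, and 14 of the 18 CP190 samples come from mutant larvae. The 28 samples of mutant larvae carry dCTCFdeltaCP alone, with SuHwdelta114, with PitadeltaCP1 or with both, and were not compared because no list is named for them. The protocol text describes larvae of the third instar only, although adult samples are labelled. Whole animals were used, so fewer cells with a bound site and less binding per cell cannot be told apart.

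The lists held 674 peaks for CTCF in adults and 808 in larvae, 1498 for Pita in adults and 1213 in larvae, 3115 for Su(Hw) in adults and 3374 in larvae, and 4220 for CP190 in larvae. Each peak has 1 fold enrichment, a linear ratio from the authors' peak caller whose control has no name in the sources. The lists are laid out as a comparison of 2 inputs that are not tied to samples, so the values carry no replicate error, the depth is unknown and no test between conditions was made. Folds describe and rank peaks within a list, since the scale of one list is not shown to be that of another. In the larval Pita list and the adult Su(Hw) list the −log10 p of the second input was 1.85 and 2.12 times that of the first at the median peak, and from 1.00 to 1.01 times in the other lists.

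Cuticle protein genes lay near Su(Hw) peaks more often than protein-coding genes at large, and near Pita and CP190 peaks less often, with too few CTCF peaks for an order. These orders depend in part on which peaks are counted and how, as given below, in most detail for Su(Hw) and CP190. A gene was counted as near a peak when the peak came within 500 bp of either of its ends. In the adult Su(Hw) list 19 of the 118 genes were near a peak, 16.1% with an exact Clopper-Pearson 95% interval of 9.98 to 24.0%, against 7.23% of all protein-coding genes. In the larval Su(Hw) list 20 genes were, 16.9% with an interval of 10.7 to 25.0%, against 8.46%. Both intervals lie above the share over all genes. They cover counting error only, and they treat genes as independent although neighbours can share a peak.

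For CP190 the order was the other way round. Peaks of CP190 lay near 21 cuticle protein genes, 17.8% with an interval of 11.4 to 25.9%, against 35.7% of all protein-coding genes. Adult Pita peaks lay near 2 of the 118, 1.69% with an interval of 0.206 to 5.99%, against 11.1% of all genes. Larval Pita peaks lay near 4 of them, 3.39% with an interval of 0.931 to 8.45%, against 10.5%. These 3 intervals lie below the share over all genes. With the weaker part of the CP190 list left out (peaks of −log10 q below its median), CP190 was near 15 cuticle protein genes, 12.7% with an interval of 7.29 to 20.1%, against 18.2% of all genes. The difference then shrank to -5.48 percentage points, and the interval includes the share over all genes. CTCF peaks were few at either stage, near 1 cuticle protein gene in adults (0.847%, interval 0.0215 to 4.63%), against 4.09% of all genes, and near 3 in larvae (2.54%, interval 0.527 to 7.25%), against 5.19%. Both CTCF intervals include the share over all genes.

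Pooled over stages, Su(Hw) lay near 23 of the cuticle protein genes, 19.5% against 8.98% of all genes, and CTCF or Pita near 7, 5.93% against 16.5%. At least 1 of the 7 lists reached 29 of them, 24.6% with an interval of 17.1 to 33.4%, against 42.1% of all genes. The other 89 were near no peak of any list, among them all 7 Ccp84 genes and Acp65Aa.

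**Figure D1:**
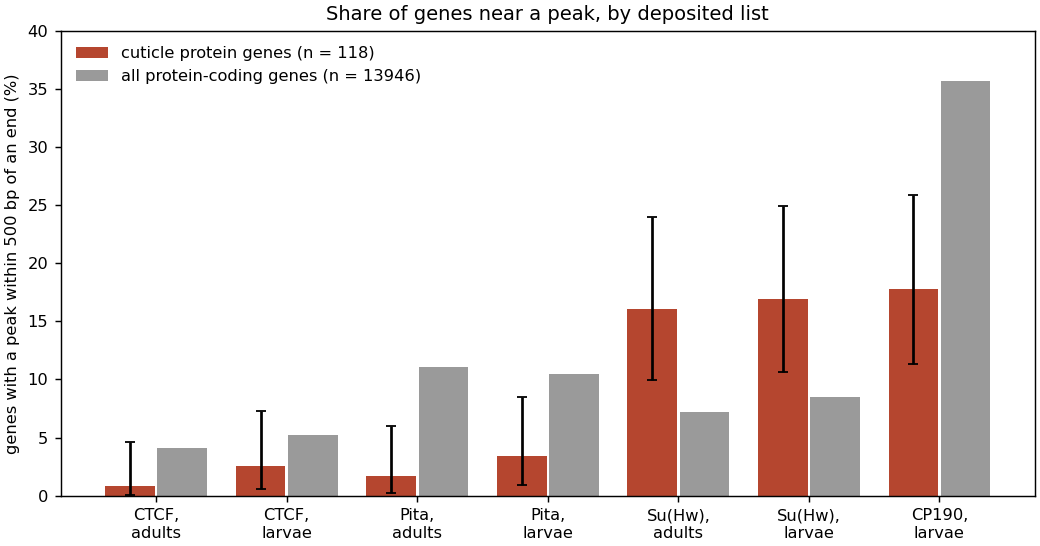
Share of genes (percent, from 0) with a peak within 500 bp of an end, for the 118 cuticle protein genes and for all 13946 protein-coding genes, in each of the 7 lists; error bars are exact 95% binomial intervals. The cuticle protein genes stand above all genes in both Su(Hw) lists, at 16.1% and 16.9%, and below them in the other 5.

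Gene length moves with these shares, so the count was repeated among genes of at most 2000 bp, 99 of them cuticle protein genes. Of those 99, 12 were near an adult Su(Hw) peak and 14 near a larval one, 12.1% and 14.1%, against 5.49% and 6.41% of all short genes. CP190 lay near 13, 13.1% against 26.3%. Pita lay near none in adults and near 1 in larvae, against 7.56% and 7.25% of short genes, and CTCF near none in adults and near 2 in larvae, against 2.79% and 3.49%. When peaks anywhere in the gene span widened by 500 bp were counted, a rule chosen after seeing the data, Su(Hw) reached 17.8% of the 118 genes in either list, with an interval of 11.4 to 25.9%. All genes then stood at 12.6% in the adult list and 13.7% in the larval list, inside that interval, while CP190 reached 20.3% against 38.6%. When the summit itself had to lie within 500 bp of an end, 10 genes were near adult Su(Hw), 8.47% with an interval of 4.14 to 15.0%, against 4.90% of all genes. In larvae 11 were, 9.32% with an interval of 4.75 to 16.1%, against 5.23%, so that under this rule too both intervals include the share over all genes. CP190 summits lay near 11 genes, 9.32% against 31.2%.

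The 500 bp limit left some genes just outside. The last gene inside was Cpr49Aa for both larval Su(Hw), at 499 bp, and CP190, at 490 bp, and Cpr49Ac for adult Su(Hw), at 458 bp. The first outside were Cpr49Ag at 630 bp from a larval Su(Hw) peak of 5.67-fold, Cpr67Fb at 624 bp from a CP190 peak of 9.74-fold and Cpr50Ca at 681 bp from an adult Su(Hw) peak of 21.7-fold. For Pita in adults the last inside was Cpr62Bb at 362 bp and the first outside Cpr30B at 732 bp, and in larvae Cpr62Bb at 352 bp and Ccp84Aa at 701 bp. For CTCF in adults Cpr50Cb at 248 bp was inside and Cpr76Ba at 567 bp outside, and in larvae Cpr31A at 333 bp was inside and Cpr100A at 733 bp outside.

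A group of 16 genes was near peaks of adult Su(Hw), larval Su(Hw) and CP190 at once. This combination was found at 13.6% of the cuticle protein genes, against 5.12% of all protein-coding genes. It is not separate from the Su(Hw) shares above. Of adult Su(Hw) peaks near a coding gene 95.8% overlapped a larval one, and of larval ones 63.7% overlapped CP190. The 16 genes also rest on fewer sites, since some neighbours share peaks. The 16 were Cpr23B, Lcp2, Lcp3, Cpr47Ea, Cpr47Ee, Cpr47Ef, Cpr49Aa, Cpr49Ab, Cpr62Ba, Cpr62Bb, Cpr62Bc, Lcp65Ag3, Cpr67Fa2, Cpr78Cb, Cpr97Ea and Twdlalpha. They were also the only cuticle protein genes near peaks of 3 or more of the 7 lists. The number of lists alone did not set them apart. Exactly 3 lists were near 14 cuticle protein genes, 11.9%, against 11.4% of all genes. Exactly 5 lists were near 2, 1.69% against 1.52%, and exactly 4 were near none, against 1.48%. By family, 21 of 70 Cpr genes were near a peak of some list, as were 4 of 15 Lcp genes and 4 of 25 Twdl genes, each a smaller share than the 42.1% of all genes. The intervals for Cpr, 19.6 to 42.13%, and Lcp, 7.79 to 55.1%, include that share. For Twdl the interval of 4.54 to 36.1% lies below it.

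**Figure D2:**
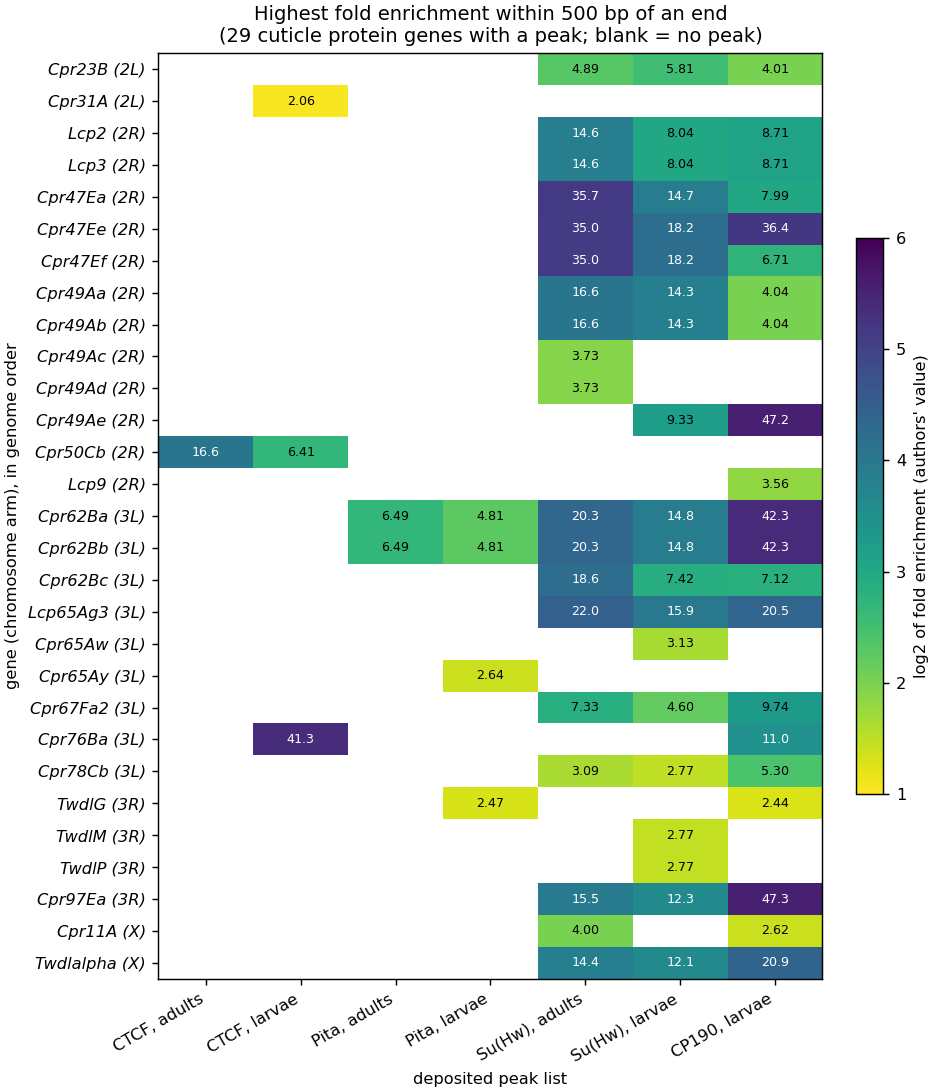
Highest fold enrichment within 500 bp of an end (number in each cell; colour is its log2) for the 29 cuticle protein genes near at least 1 peak, in genome order, with the 7 lists as columns. Values gather in the 3 right-hand columns, both Su(Hw) lists and CP190, where Cpr97Ea, Cpr49Ae and Cpr62Ba have the highest CP190 folds, 47.3, 47.2 and 42.3; neighbours with equal values share a peak.

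The Cpr47E genes on 2R held the highest adult Su(Hw) folds of the set. At Cpr47Ea the Su(Hw) fold was 35.7 in adults and 14.7 in larvae, and the CP190 fold was 7.99. The summits of these peaks lie within Cpr47Ea, but the nearest coding end is that of Or47a, at 429, 428 and 385 bp. Cpr47Ee and Cpr47Ef share a Su(Hw) peak of 35.0-fold in adults and 18.2-fold in larvae. Both genes thus rest on 1 peak. Among the 3115 adult Su(Hw) peaks the peaks at Cpr47Ea and Cpr47Ee ranked 116 and 118 by fold. CP190 had 2 peaks here, both overlapping the shared Su(Hw) peak. The peak of 6.71-fold was within 500 bp of both genes, and that of 36.4-fold (2R, 11263700 to 11264948, dm6) within 500 bp of Cpr47Ee only.

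Cpr62Ba and Cpr62Bb on 3L were the only members near peaks of 5 lists, 1.69% of the members against 1.52% of all genes. They share a site between them with Su(Hw) at 20.3-fold in adults and 14.8-fold in larvae, CP190 at 42.3-fold, and Pita at 6.49-fold in adults and 4.81-fold in larvae. The CP190 peak spans 3L from 1831303 to 1832433 and ranked 157 of 4220. Their neighbour Cpr62Bc, near peaks of 3 lists, had a second site, with Su(Hw) at 18.6-fold in adults and 7.42-fold in larvae and CP190 at 7.12-fold. No CTCF peak lay within 500 bp of these 3 genes.

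Among the larval cuticle protein genes, Lcp2 and Lcp3 share 1 site between them, with Su(Hw) at 14.6-fold in adults and 8.04-fold in larvae and CP190 at 8.71-fold. Lcp65Ag3 has a site on its outer side, where Su(Hw) was 22.0-fold in adults (3L, 6129358 to 6130094) and 15.9-fold in larvae, and CP190 was 20.5-fold. Lcp9 was near 2 CP190 peaks, of 3.56- and 2.49-fold, and no other list. Both lie close to other genes too, egg, which encodes a histone methyltransferase, and CG3594.

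The Cpr49A genes on 2R differed among themselves. Cpr49Aa and Cpr49Ab share Su(Hw) at 16.6-fold in adults and 14.3-fold in larvae with CP190 at 4.04-fold. Cpr49Ac and Cpr49Ad share an adult Su(Hw) peak of 3.73-fold and were near no larval peak. Cpr49Ae had larval Su(Hw) at 9.33-fold and CP190 at 47.2-fold (2R, 12403291 to 12404776), ranked 113 of 4220. Its adult Su(Hw) peak, of 25.4-fold, lies within the gene at 862 bp from the nearest end, beyond the limit.

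The remaining genes with the combination were single sites. Cpr97Ea had Su(Hw) at 15.5-fold in adults and 12.3-fold in larvae and the highest CP190 fold of the set, 47.3 (3R, 27081935 to 27083784), ranked 112 of 4220. The summits there lie nearer to the end of CG14257 than to Cpr97Ea. Twdlalpha, a Tweedle gene on X nested in the gene goe, had 14.4-fold in adults, 12.1-fold in larvae and 20.9-fold for CP190. Cpr67Fa2, Cpr23B and Cpr78Cb had lower values, with CP190 at 9.74-, 4.01- and 5.30-fold, adult Su(Hw) at 7.33-, 4.89- and 3.09-fold and larval Su(Hw) at 4.60-, 5.81- and 2.77-fold. The site at Cpr78Cb is shared with Edg78E, a pupal cuticle protein gene whose symbol falls outside the rule.

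CTCF and Pita had few sites. CTCF was near Cpr50Cb in both stages, at 16.6-fold in adults and 6.41-fold in larvae, with the summits within 11 bp of an end of stj, which encodes a calcium channel subunit. Larval CTCF was also near Cpr76Ba, at 41.3-fold together with CP190 at 11.05-fold, and near Cpr31A at 2.06-fold. Apart from Cpr62Ba and Cpr62Bb, Pita was near Cpr65Ay at 2.64-fold and TwdlG at 2.47-fold, both in larvae alone. At Cpr65Ay the −log10 p was 17.1 in one input and 67.3 in the other.

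Of the 23 cuticle protein genes near Su(Hw) at either stage, 16 were near a peak in adults and in larvae, 69.6% with an interval of 47.1 to 86.8%, against 74.8% of all genes near Su(Hw) at either stage. A further 3 were in adults alone (Cpr49Ac, Cpr49Ad and Cpr11A) and 4 in larvae alone (Cpr49Ae, Cpr65Aw, TwdlM and TwdlP). Of the stage-specific values, Cpr11A had 4.00-fold in adults, Cpr65Aw 3.13-fold in larvae, and TwdlM and TwdlP share 2.77-fold in larvae. For CTCF 1 of 3 genes was called at both stages, against 63.4% of all genes called at either, and for Pita 2 of 4, against 67.9%, with the others called in larvae alone. Calls at 1 stage do not show a change, since the difference was not tested and 2 of them, Cpr49Ae for Su(Hw) and Cpr76Ba for CTCF, had an adult peak past the limit, for CTCF at Cpr76Ba of 26.4-fold at 567 bp.

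Counted as peaks, 14 of the adult Su(Hw) peaks near a coding gene were near a cuticle protein gene, 1.84% of 759, and 16 of the larval ones, 1.82% of 880. The cuticle protein genes are 0.846% of coding genes. For CP190 it was 19 of 3136 peaks, or 0.606%, for Pita 1 of 970 in adults and 3 of 858 in larvae, and for CTCF 1 of 369 in adults and 3 of 456 in larvae. Of the 14 adult Su(Hw) peaks, 5 were also near another coding gene, as were 4 of the 16 larval ones and 8 of the 19 CP190 peaks. The cuticle protein gene held the nearest coding end at 12 of the 14, 13 of the 16 and 16 of the 19. The same counts were not made over all peaks near a coding gene, so they describe these peaks only.

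The median fold of peaks near cuticle protein genes was above that of all peaks near a coding gene in both Su(Hw) lists and CP190. Single peaks ranged widely and stayed below the highest of each list. The median fold of the 14 adult Su(Hw) peaks was 15.1, against 11.2 for all adult Su(Hw) peaks near a coding gene, and that of the 16 larval ones was 8.68, against 7.96. For the 19 CP190 peaks it was 7.99 against 4.99, with 13 of the 19 above the median of the list's peaks near genes. Of the adult Su(Hw) peaks 9 of the 14 were above that median of their list, and of the larval ones 9 of the 16. Some ranked low, such as the adult Su(Hw) peak at Cpr78Cb, 3086 of 3115 by fold. Their folds ran from 3.09 to 35.7 for adult Su(Hw), from 2.72 to 18.2 for larval Su(Hw) and from 2.44 to 47.3 for CP190. The highest folds of those lists were 135, 115 and 70.2.

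**Figure D3:**
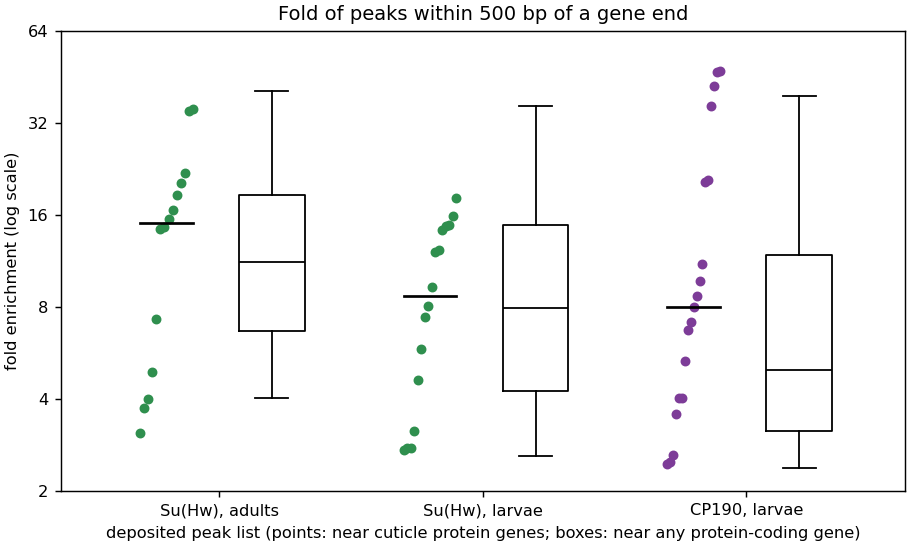
Fold enrichment (log axis) of peaks near the cuticle protein genes, 1 point per peak, beside all peaks of the same list near a coding gene, for both Su(Hw) lists and CP190; horizontal lines are medians of the points, and boxes show the median, quartiles and the central 90% of the lists' gene-near peaks. The 19 CP190 points run from 2.44 to 47.3 with a median of 7.99, against 4.99 for that list's peaks near genes.

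CP190 peaks near these genes mostly overlapped Su(Hw) peaks. Of the 19, 14 overlapped a larval Su(Hw) peak by at least 1 bp, 73.7% with an interval of 48.8 to 90.9%, against 17.2% of all CP190 peaks near a coding gene. An overlap with larval CTCF or Pita was found for 3 of the 19, 15.8% with an interval of 3.38 to 39.6%, against 29.7%. With any of the 6 C2H2 lists, 17 of the 19 overlapped, 89.5% against 46.5%. The 2 without one are the peaks at Lcp9. The other 3 CP190 peaks without larval Su(Hw) are those at Cpr76Ba, on a CTCF peak, at TwdlG, on a Pita peak, and at Cpr11A, on an adult Su(Hw) peak.

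In the other direction the shares stood closer to those of all peaks near a coding gene. Of the 16 larval Su(Hw) peaks near cuticle protein genes 13 overlapped CP190, 81.25% with an interval of 54.4 to 96.0%, against 63.7% of larval Su(Hw) peaks near a coding gene. Over the whole larval Su(Hw) list 34.9% of peaks overlapped CP190. Between stages, 12 of the 14 adult Su(Hw) peaks overlapped a larval one, 85.7% against 95.8% of those near a coding gene. In turn 14 of the 16 larval ones overlapped an adult one, 87.5% against 88.2% of those near a coding gene. Each of these 3 intervals includes the share of peaks near a coding gene, since those of the stage overlaps run from 57.2 to 98.2% and from 61.7 to 98.4%. The interval for CP190 lies above the 34.9% of the whole list.

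Cuticle protein genes stand in runs of neighbours, defined here as at least 3 members with no more than 1 other coding gene between successive ones. There were 14 runs, which hold 78 of the 118 genes and span 4704 to 31204 bp. The longest is that from Lcp65Ag3 to Cpr65Az on 3L, with 18 members. The next are TwdlM to TwdlD on 3R with 12, and Cpr47Ea to Cpr47Eg on 2R and Ccp84Ag to Ccp84Aa on 3R with 7 each. Genes at the edge of a run were near a peak of some list in 8 of 28 cases, inner genes in 10 of 50 and genes outside runs in 11 of 40, which is 28.6, 20.0 and 27.5%, each below the 42.1% of all genes. Only the interval for inner genes, 10.0 to 33.7%, lies below that share. Those for the first genes of runs, 17.7 to 71.1%, the last, 1.78 to 42.8%, and genes outside runs, 14.6 to 43.9%, include it.

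Per Mb, Su(Hw) and CP190 summits were denser inside the runs and within 5000 bp of their borders than over the same chromosome arms. Inside the 14 runs there were 8 adult Su(Hw) summits, 40.1 per Mb, 11 larval ones, 55.2 per Mb, and 10 CP190 summits, 50.2 per Mb. Over the arms that hold runs (2R, 3L, 3R and X) the densities were 23.6, 25.7 and 31.7 per Mb. The run length would then hold 4.71, 5.12 and 6.33 summits, against the 8, 11 and 10 found. Counts this small carry a wide counting error, and the excess inside runs was not tested. The runs hold 78 members in 0.199 Mb, while 2R, 3L, 3R and X hold 2851, 2739, 3398 and 2197 coding genes in 107.5 Mb. Coding genes thus stand more densely inside runs, and the densities per Mb were not adjusted for this. Counted by gaps between coding genes, CP190 summits were less frequent inside runs, 9.26% against 23.6%. For Su(Hw) the shares of gaps were 9.26% against 8.97% in adults and 11.1% against 9.29% in larvae. The border windows held 11 summits in each Su(Hw) list, 78.6 per Mb, and 12 of CP190, 85.7 per Mb. In windows of 10000 bp the densities were 46.4 per Mb for adult Su(Hw), 50.0 for larval Su(Hw) and 60.7 for CP190, and in windows of 2000 bp they were 71.4 for each Su(Hw) list and 89.3 for CP190. CTCF had no summit inside a run in either list and 5 in the border windows of each, 35.7 per Mb, against 5.14 per Mb for adults and 6.09 for larvae over the arms. At those densities the length of the runs would hold 1.03 and 1.21 summits, so the lack of one inside is no difference that could be detected. The border density of CTCF was 17.9 per Mb in windows of 2000 bp, from 1 summit, and 21.4 per Mb in windows of 10000 bp, in each list. Pita had 1 summit inside and 3 at borders in adults, 5.02 and 21.4 per Mb, against 10.9 over the arms, and in larvae 4 and 3, 20.1 and 21.4 per Mb, against 9.06.

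**Figure D4:**
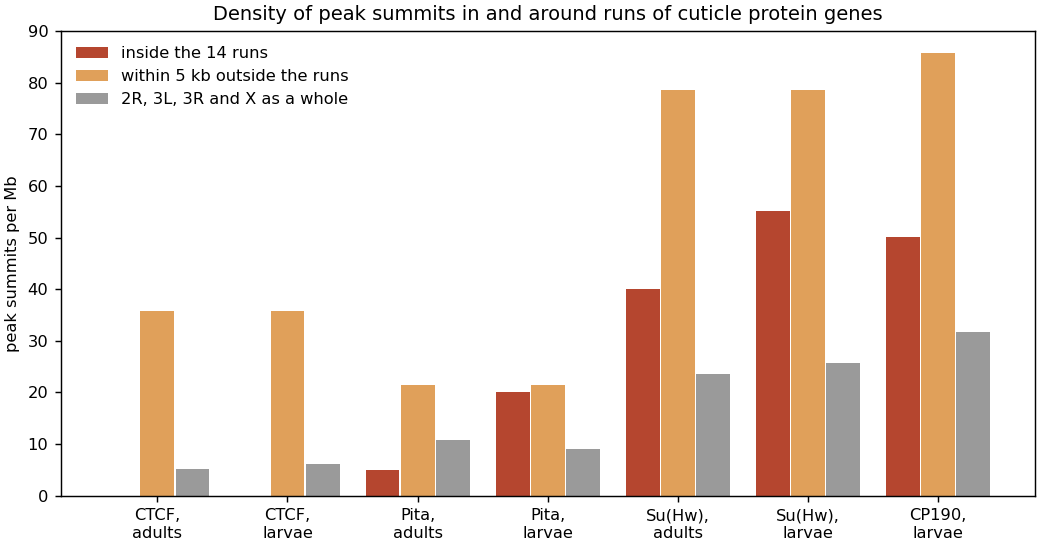
Density of peak summits (summits per Mb, from 0) inside the 14 runs, in the 5000 bp border windows on both sides of them, and over the 4 chromosome arms that hold runs, for the 7 lists. CTCF has 35.7 per Mb at the borders in either stage, from 5 summits each, and Su(Hw) has 78.6 per Mb at borders in either stage.

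The runs cover 0.199 Mb and the border windows 0.14 Mb, so each of these densities rests on at most 12 summits. A border summit was found at 8 of the 14 runs in each Su(Hw) list, at 9 for CP190, at 4 in each CTCF list and at 2 in each Pita list. Summits inside were found in 6 runs for adult Su(Hw), 8 for larval Su(Hw) and 7 for CP190. All 11 border Su(Hw) peaks of either stage overlapped a peak of the other stage, and 8 of the 11 overlapped CP190. Over the whole lists 93.7% of adult Su(Hw) peaks overlapped a larval one, and 86.9% of larval ones an adult one. Of larval Su(Hw) peaks 34.9% overlapped CP190 over the list, and 63.7% of those near a coding gene.

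Gaps between coding genes were compared at the borders of runs, inside them and over the genome. Of 23 border gaps 6 held an adult Su(Hw) summit, 26.1% with an interval of 10.2 to 48.4%, and 6 a larval one. Of 54 gaps inside runs 5 held an adult summit, 9.26%, and 6 a larval one, 11.1%. Over all gaps between coding genes the shares were 8.97% for adults and 9.29% for larvae. For CP190 they were 26.1% at borders and 9.26% inside runs, where the interval runs from 3.08 to 20.3%, against 23.6% over all gaps. The median gap was 1570 bp at borders, 1043 bp inside runs and 476 bp between all coding genes, and the part of gap length in these shares was not tested.

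The run from Lcp65Ag3 to Cpr65Az, with 18 members in 31204 bp, had lower folds inside than at its low-coordinate edge. Beyond Lcp65Ag3, Su(Hw) summits lie 597 bp outside in adults and 615 bp outside in larvae, with the CP190 summit at 619 bp. At the other border, in Prdm13, Su(Hw) was 7.87-fold in adults and 8.998-fold in larvae. Inside were 1 larval Su(Hw) peak of 3.13-fold, 1 larval Pita peak of 2.64-fold and 1 CP190 peak of 8.26-fold between Acp65Aa and CG13297. Lcp65Ab1 and Lcp65Ab2, Lcp65Ag1 to Lcp65Ag3, Cpr65Ax1 and Cpr65Ax2, and Cpr67Fa1 and Cpr67Fa2 have numbered symbols and may be close copies. Their sequences were not compared. The sources used here do not say how reads that fit several copies were treated, and the lack of a peak at such a gene is uncertain.

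The Ccp84 run on 3R, between the Hox genes lab and pb of the Antennapedia complex, had no summit inside from any list. At its low-coordinate border, beyond Edg84A, larval CTCF was 12.4-fold, Su(Hw) 8.28-fold in adults and 9.32-fold in larvae, and CP190 19.6-fold. At its other border, between Ccp84Aa and pb, Pita was 20.4-fold in adults and 13.7-fold in larvae, with CP190 at 15.4-fold. A further site within pb had Pita at 86.5-fold in adults and 20.5-fold in larvae, CTCF at 3.86-fold in adults and 3.22-fold in larvae, and CP190 at 16.6-fold. Of the 6 mapped runs it is the one with peaks of all 4 proteins in its border windows.

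**Figure D5:**
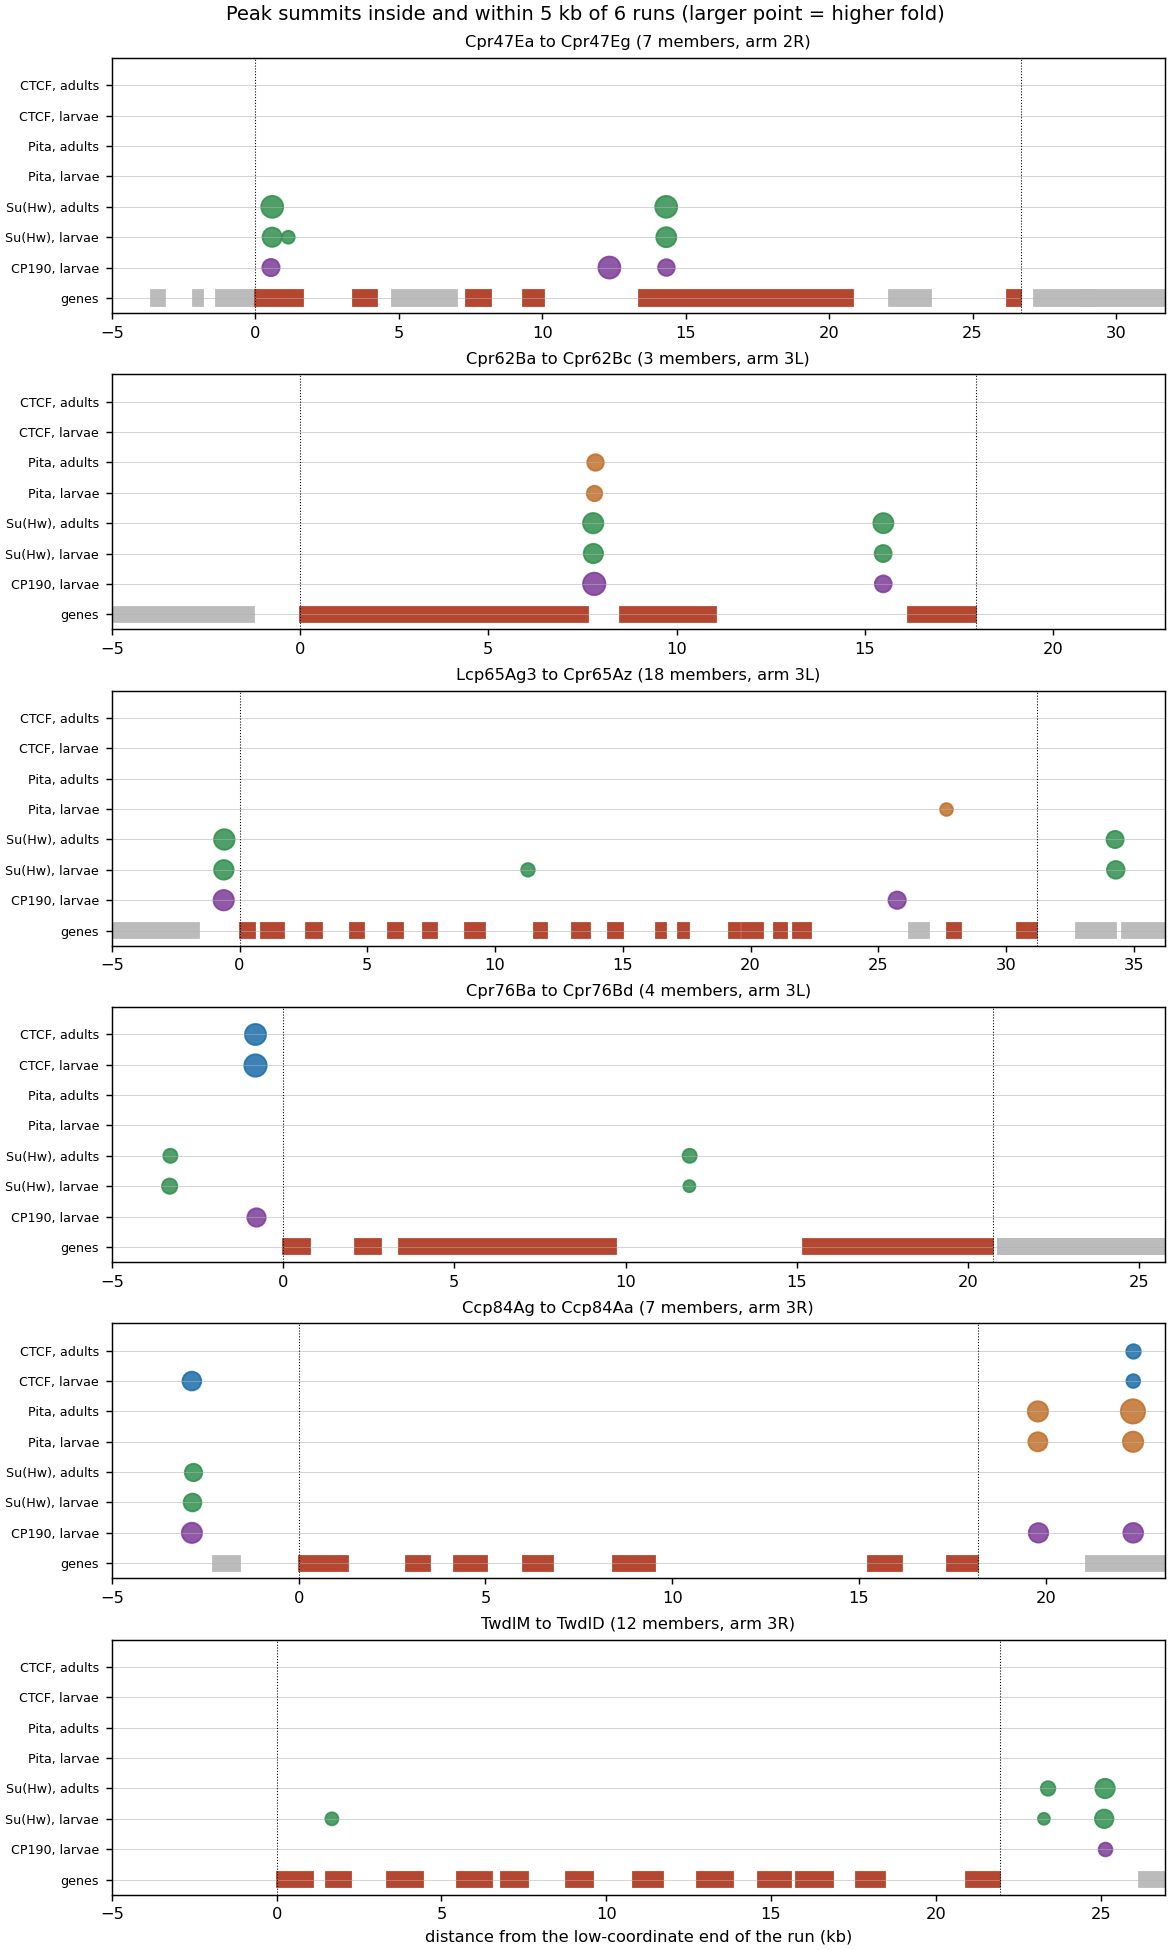
Peak summits (points, larger for higher fold, 1 row per list) inside and within 5000 bp of 6 runs, by distance in kb from the low-coordinate end of the run; red bars are cuticle protein genes, grey bars other coding genes, dotted lines the ends of the run. The run of 7 Ccp84 genes has no summit between its dotted lines and summits on both sides, while both Cpr47E and Cpr62B runs hold Su(Hw) and CP190 summits inside.

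CTCF stood at the borders of 4 runs. At the Cpr76B run it lies 829 bp outside in adults, at 26.4-fold, and 830 bp outside in larvae, at 41.3-fold, with CP190 at 11.05-fold. Inside that run Su(Hw) was 3.56-fold in adults and 2.27-fold in larvae. At the Cpr67F run, CTCF at OXA1L was 75.6-fold in adults and 90.1-fold in larvae with CP190 at 9.09-fold, and on the other side an adult CTCF peak of 178-fold lies beside Pita of 25.3-fold in adults and 11.3-fold in larvae. At the run of TwdlX to Twdlalpha, CTCF in goe was 4.19-fold in adults and 3.36-fold in larvae. The fourth is the Ccp84 run.

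The Tweedle run from TwdlM to TwdlD held 1 summit in its 21937 bp, the larval Su(Hw) peak of 2.77-fold. Its high-coordinate border had Su(Hw) at 15.2-fold in adults and 11.5-fold in larvae, with CP190 at 3.25-fold. In the same way, the Cpr64A run had no summit inside and a border site in CG43367 with Su(Hw) at 35.1-fold in adults and 29.5-fold in larvae and CP190 at 46.9-fold. The Cpr65E run also had none inside, with border Su(Hw) at 12.8-fold in adults and 10.5-fold in larvae and CP190 at 4.86-fold. From Cpr72Ea to Cpr72Ec no summit lay inside or within 5000 bp, the nearest being a CP190 summit of 5.22-fold at 11247 bp.

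Other genes of cuticle and chitin formation, 33 of which were found by symbol, were near Su(Hw) peaks in 10 cases in adults and 10 in larvae, 30.3% with an interval of 15.6 to 48.7%. The shares of all genes were 7.23% in adults and 8.46% in larvae. CP190 was near 11 of the 33, 33.3% with an interval of 18.0 to 51.8%, which includes the 35.7% of all genes. CTCF was near 1 in adults and 3 in larvae, 3.03% and 9.09%, against 4.09% and 5.19% of all genes. Pita was near 1 in adults and 2 in larvae, 3.03% and 6.06%, against 11.1% and 10.5%. The CTCF and Pita counts are too small to set apart from these shares. Tb, a Tweedle gene named for the Tubby mutant, had Su(Hw) at 25.8-fold in adults and 21.9-fold in larvae and CP190 at 16.4-fold. Cht7, a chitinase gene, had 23.9-fold in adults and 24.9-fold in larvae with CP190 at 6.29-fold, and Cda5, a chitin deacetylase gene, 10.2-fold in adults and 10.0-fold in larvae with CP190 at 19.5-fold.

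Further genes of the list carried other proteins. At rtv, which is needed for chitin organisation, CTCF was 17.4-fold in adults and 56.3-fold in larvae, with CP190 at 10.6-fold. At resilin, which encodes an elastic cuticle protein, Pita was 7.40-fold in adults and 5.58-fold in larvae, with CP190 at 4.70-fold. Edg78E and Edg84A are in this list, and their sites are those given above at Cpr78Cb and at the border of the Ccp84 run.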

How the data were processed

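ChIP-seq peaks from whole larvae and adults were used as 7 lists in dm6 coordinates. The submitters' processing notes name build dm6 and, without roles or versions, MACS2, Bowtie2, deepTools, cutadapt, bedtools and Picard. For each peak the authors deposited its fold enrichment (a ratio), its −log10 q, a −log10 p in each of 2 inputs, and a global IDR. No source used here tells how replicates entered the inputs, and depth is unknown.

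Gene positions came from RefSeq (assembly Release 6 plus ISO1 MT, the same as dm6), whose table gives no strand, so either gene end was used and no promoter was defined. Distances run from the nearest base of a peak, and summits place peaks in runs, borders and gaps. Shares have exact Clopper-Pearson 95% intervals (SciPy 1.17.1), for counting error only, and no p-value was computed. Scripts ran in Python 3.11.15 with pandas 2.3.3 and were tested on simulated data. Named are members near peaks of at least 3 lists, the 5 highest folds of each list, the highest peaks of runs and borders, and up to 6 other cuticle genes. Further genes near a peak were named after their values were seen. The members and lists were chosen with earlier results of these data known. Alternatives changed the distance (200 or 1000 bp), the peak strength, the IDR, the overlap, the border and the definition of a run, and counting peaks over the gene span was added after seeing the data. Of 34 other cuticle symbols 33 were found.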

Additional observations from a re-analysis of the deposited data

How the results depend on the processing

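The shares of cuticle protein genes near Su(Hw) peaks stood above those of all genes, and near CTCF, Pita and CP190 peaks below them, in all 8 alternatives of each list. One of the 8, an IDR of at most 0.01, removed no peak from either CTCF list, adult Pita, larval Su(Hw) or CP190. In those lists it could only repeat the main count. The difference from all genes ran from 3.57 to 10.4 percentage points for adult Su(Hw), from 4.09 to 8.67 for larval Su(Hw) and from -21.9 to -5.48 for CP190, the smallest with the weaker CP190 peaks left out. For Pita it ran from -9.82 to -6.88 in adults and from -7.73 to -5.17 in larvae. For any list it ran from -21.3 to -7.33, the smallest with the weaker peaks left out. The counts moved more. Within 200 bp, adult CTCF was near 0 genes, larval CTCF near 0 and adult Pita near 1. The shares of all genes were then 3.26, 4.45 and 9.5%. Within 1000 bp, adult CTCF was near 2, adult Pita near 5 and larval Pita near 8. These were 1.69, 4.24 and 6.78% of the members, against 4.8, 12.9 and 12.0% of all genes. With the weaker peaks of each list left out (−log10 q below its median), larval CTCF was near 1 gene, adult Pita near 0, larval Pita near 0 and any list near 18. The shares of all genes were then 3.44, 6.88, 6.13 and 22.6%, the last against 15.3% of the members. With summits in place of whole peaks, adult CTCF was near 0, larval CTCF near 1, adult Pita near 1, adult Su(Hw) near 10, larval Su(Hw) near 11, CP190 near 11 and any list near 17. In the same order, the shares of all genes were 3.06, 3.8, 9.41, 4.9, 5.23, 31.2 and 35.7%. Over the gene span, added after seeing the data, adult CTCF reached 2 genes and adult Pita 4, against 5.31 and 13.2% of all genes. With no other gene allowed between members, runs held 2 larval Pita summits, and with up to 3 allowed they held 15 adult and 19 larval Su(Hw) summits. The total run length changes with this rule, so these counts are not densities. Border windows of 2000 bp held 1 summit in each CTCF and each Pita list, 4 in each Su(Hw) list and 5 of CP190, and windows of 10000 bp held 7 adult and 6 larval Pita summits. No paired analysis was possible because the lists are not tied to replicates and no test was made. Depth limits what a missing peak means, and it is unknown here.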
